A study of Mus musculus with 6 samples.

Results

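The RNA-binding proteins described here are HuR, encoded by Elavl1 and reported as the protein partner of the long noncoding RNA lncMGPF, and a set of regulators of mRNA decay and splicing that act in skeletal muscle. The genes are Elavl1, Khsrp, Rbfox1, Rbfox2, Mbnl1, Mbnl2, Mbnl3, Celf1, Celf2 and Ptbp1. They were chosen by name, and all their array probes were read: 22 of 39429 probes, for 10 of 20659 named genes. All 22 passed the filter on dim signal, and 21 were above background on all 6 arrays.

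C2C12, an established mouse myoblast line whose cells fuse into myotubes, received an siRNA against lncMGPF (si-lncMGPF, 3 samples) or a control siRNA (si-NC, 3 samples). RNA of both groups, taken at 2 days of differentiation, was read on 1-colour expression arrays. This is a single line with a transient knockdown, and nothing states that replicates came from separate cultures, so the p-values cover the spread among these 6 samples, which may be technical. No probe carried the name lncMGPF, and the knockdown itself was therefore not measured here.

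HuR binds AU-rich and U-rich elements of mRNAs and protects many, though not all, of them from decay. In muscle cells it is known for holding on to the mRNAs of myogenic regulators. KSRP, the product of Khsrp, binds AU-rich elements too and recruits the decay machinery. RBFOX, MBNL, CELF and PTB proteins bind exons and their flanking introns and set the muscle pattern of alternative splicing, with MBNL and CELF proteins opposing each other at many exons. Loss of MBNL activity with gain of CELF1 is a hallmark of myotonic dystrophy. Arrays of this kind read the amount of a transcript around a probe, so neither binding nor splicing was measured.

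Levels are given as the log2 signal of a probe minus the 75th percentile of its array, so 0 is the 75th percentile and each unit is a doubling. A level can be compared between arrays for 1 probe, not between probes. Probes of a gene are numbered from the brightest and are not replicates. Those of Rbfox2 and Celf2 are annotated to differing transcripts, and which transcripts each probe reads was not checked. Changes are si-lncMGPF minus si-NC.

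The arrays stand on 2 slides by their scan identifiers: slide 1 carried the 3 si-NC arrays together with si-lncMGPF replicate 1, and slide 2 carried replicates 2 and 3 of si-lncMGPF. Their 75th percentile was 492.1 to 923 intensity units in si-lncMGPF and 688.2 to 930.7 in si-NC. Correlations of levels over the tested probes were 0.987 to 0.988 between slides within si-lncMGPF, and 0.993 to 0.995 between groups on slide 1, so si-lncMGPF replicate 1 correlated more with the control arrays beside it than with its own group. For this reason many changes are also given for slide 1 (si-lncMGPF replicate 1) and for slide 2 (the mean of si-lncMGPF replicates 2 and 3), both against the same 3 si-NC arrays. A change printed without these values may still differ between the slides. All 10 markers of skeletal muscle cells were above the filter, among them Myod1, Myog, Des and Ckm. Of 4 endothelial markers, Cdh5 and Tek were not above background on any array, while Pecam1 and Kdr were above it on all 6. All 4 leukocyte markers with a probe and 5 of 6 neuronal markers were also above the filter. Precision is limited by having 3 arrays a group.

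None of the 10 genes differed between si-lncMGPF and si-NC past an adjusted p of 0.05 (limma, 0 of 22 probes). Over all tested probes 0.105% passed, so a set of 22 would seldom hold a call. At an unadjusted p below 0.05 there was 1 member probe (lower in si-lncMGPF), 4.55% of them, against a background of 15.8% of all tested probes. The median change of the 22 probes was 0.05, beside 0.01 over all tested probes, and 13 were positive and 9 negative. Apart from a probe of Rbfox1, no change was larger than 0.23 in either direction. For 20 of the 22 probes the whole 95% interval lay within 1.5-fold, a share of 90.9%, beside 67.1% of all tested probes. These intervals take the arrays of a group as interchangeable, although the si-lncMGPF arrays stand on both slides. In bulk RNA, fewer cells of a type and less RNA per cell cannot be told apart.

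**Figure D1:**
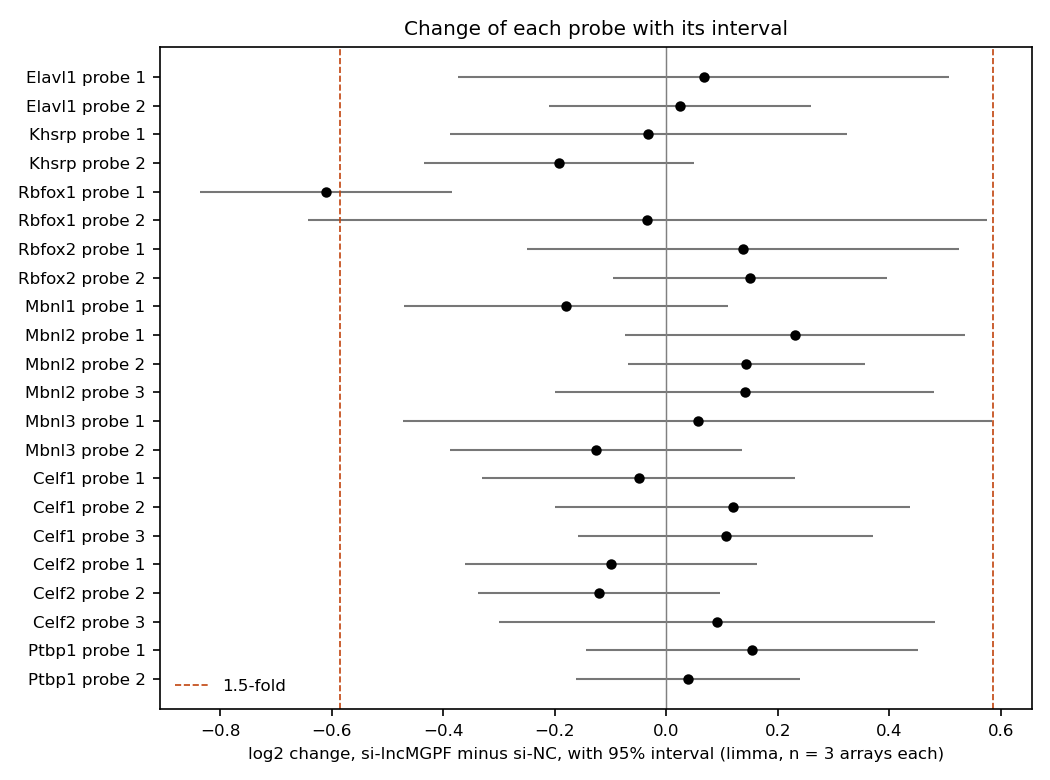
Log2 change of each of the 22 probes (si-lncMGPF minus si-NC, points) with its 95% interval from limma over 3 arrays of each group (bars); dashed lines mark 1.5-fold. The intervals of Rbfox1 probes 1 and 2 reach past a dashed line, the other 20 do not, and the interval of Rbfox1 probe 1 is the single one that leaves out 0.

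Elavl1, the gene of HuR, had levels of 3.35, 4.02 and 3.91 on si-lncMGPF replicates 1, 2 and 3 at probe 1, against 3.58, 3.78 and 3.71 on the si-NC arrays. The si-lncMGPF arrays lay on both sides of the si-NC arrays, with replicate 1 below all of them and replicates 2 and 3 above. The change was 0.07 (SE 0.18, 95% interval -0.37 to 0.51, limma adjusted p = 0.875), a fold of 1.05 with an interval of 0.772 to 1.42. On slide 1 it was -0.34 and on slide 2 it was 0.27. Probe 2, annotated to the same transcript (NM_010485), had levels of 0.32, 0.52 and 0.57 in si-lncMGPF and 0.45, 0.48 and 0.41 in si-NC. Again replicate 1 lay below the control arrays and replicates 2 and 3 above them, over a narrower range. The change there was 0.02 (SE 0.10, 95% interval -0.21 to 0.26, adjusted p = 0.918), with -0.12 on slide 1 and 0.10 on slide 2. Both intervals lay within 1.5-fold in this fit, which takes no account of slide. With slide as a fixed block, a contrast that rests on si-lncMGPF replicate 1, probe 1 had -0.34 (SE 0.11, adjusted p = 0.209). With array weights, a setting that called 54.3% of all tested probes, probe 2 had 0.14 (limma adjusted p = 0.05, just under the threshold before rounding). The largest weights in their groups were those of si-lncMGPF replicate 3 (slide 2) and si-NC replicate 3 (slide 1).

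Khsrp, which encodes the decay-promoting factor KSRP, had levels of 0.92, 1.11 and 1.30 in si-lncMGPF and 0.90, 1.28 and 1.25 in si-NC at probe 1. The groups overlapped throughout, and the change was -0.03 (SE 0.15, adjusted p = 0.928). At probe 2 the levels were -2.65, -2.50 and -2.50 in si-lncMGPF, against -2.47, -2.23 and -2.37 in si-NC. Here every si-lncMGPF array lay below every si-NC array, but the change of -0.19 (SE 0.10, 95% interval -0.44 to 0.05) did not pass (adjusted p = 0.39). Groups without overlap were common on these arrays: 23% of all tested probes had them, and 3 of the 22 member probes (13.6%).

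**Figure D2:**
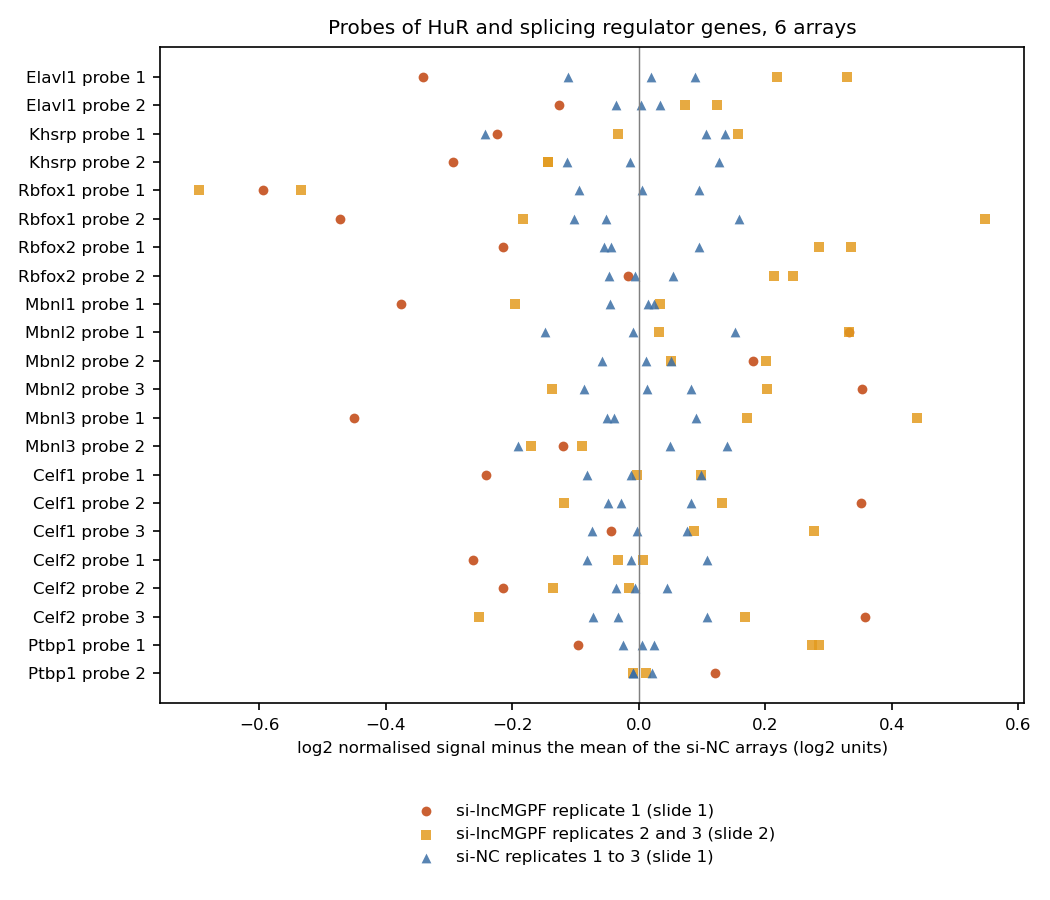
Level of each of the 22 probes on each array, drawn as the difference from the mean of the 3 si-NC arrays of that probe, in log2 units: circles, si-lncMGPF replicate 1; squares, si-lncMGPF replicates 2 and 3; triangles, si-NC. For Rbfox1 probe 1 all 3 si-lncMGPF arrays lie well to the left of the control arrays, while for Elavl1, Rbfox2 and Mbnl3 probe 1 the circle and the squares lie on opposite sides.

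Rbfox1 and Rbfox2 encode paralogous splicing factors that recognise UGCAUG in introns beside alternative exons, and both act in muscle and neurons. Rbfox1 was the member nearest to the threshold. Its probe 1 had levels of -4.17, -4.27 and -4.11 in si-lncMGPF, against -3.67, -3.48 and -3.57 in si-NC. All si-lncMGPF arrays were below all si-NC arrays, with SDs of 0.08 and 0.09 within the groups. The change was -0.61 (SE 0.09, 95% interval -0.84 to -0.39), a fold of 0.655 with an interval of 0.56 to 0.766, and it did not pass (limma adjusted p = 0.125, unadjusted p = 0.000421). By unadjusted p this probe stood at rank 82 of 24661. Unlike the probes of Elavl1 it had almost the same change on the slides, -0.60 on slide 1 and -0.62 on slide 2.

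Both Rbfox1 probes were dim. Before scaling, probe 1 read 51.1, 30.1 and 28.4 intensity units in si-lncMGPF and 73.1, 61.6 and 63.5 in si-NC. On the same background-subtracted scale the median of the negative control spots was 3.68, 4.21 and 4.30 units in si-lncMGPF, against 3.33, 2.62 and 3.10 in si-NC, and probe 1 was above background on all 6 arrays. Before background subtraction, negative controls had a mean net signal of 21.8, 37.3 and 42.5 units in si-lncMGPF, against 20.1, 21.5 and 21 in si-NC. On slide 2 that net signal was larger than the background-subtracted signal of probe 1, whose fold moves with the background correction, and the part of the higher background in the result was not tested. After normexp background correction with an offset of 50 the change of probe 1 was -0.27 (adjusted p = 0.167), and with an offset of 10 it was -0.40 (adjusted p = 0.186). It became a call when si-lncMGPF replicate 1 was left out (-0.62, limma adjusted p = 0.0157), where group and slide coincide and cannot be told apart. That setting called 16.6% of all tested probes. It was also a call with array weights (-0.56, limma adjusted p = 0.000641), a setting that called 54.3% of all tested probes. Those weights were largest in their groups for si-lncMGPF replicate 3 (slide 2) and si-NC replicate 3 (slide 1), so group and slide nearly coincide there too. Over all alternatives the limma adjusted p of probe 1 ran between 0.000641 and 0.645.

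Probe 2 of Rbfox1, annotated to the same transcript (NM_021477), had levels of -4.76, -4.47 and -3.74 in si-lncMGPF, against -4.13, -4.34 and -4.39 in si-NC. The si-lncMGPF arrays spanned the whole range of the control arrays and went beyond it on both sides, with an SD of 0.53 in si-lncMGPF and 0.14 in si-NC. The change was -0.03 (SE 0.25, 95% interval -0.64 to 0.57, adjusted p = 0.958), the widest interval of all 22 probes. With array weights, where 54.3% of all tested probes were called, it was 0.54 (limma adjusted p = 0.0136), past the threshold in the direction opposite to probe 1. The 3 named genes whose levels over the 6 arrays were most like Rbfox1 probe 1 were Tgm2 (r = 0.999), which encodes a transglutaminase, Ctrb1 (r = 0.997), which encodes a chymotrypsinogen, and Cdsn (r = 0.996), which encodes corneodesmosin. These were picked out of 12885 genes on 6 arrays that share slides, and their changes of -0.39, -0.52 and -0.46 did not pass either (adjusted p = 0.187, 0.134 and 0.172).

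Rbfox2 had levels of 1.30, 1.80 and 1.85 in si-lncMGPF and 1.47, 1.61 and 1.46 in si-NC at probe 1. As for Elavl1, replicate 1 was below the control arrays and replicates 2 and 3 above them. The change was 0.14 (SE 0.16, adjusted p = 0.687), with -0.22 on slide 1 and 0.31 on slide 2. At probe 2, annotated to another transcript of the gene, it was 0.15 (SE 0.10, adjusted p = 0.489), with -0.01 on slide 1 and 0.23 on slide 2.

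The muscleblind genes encode zinc-finger proteins that drive the adult splicing pattern of muscle, with MBNL1 the main form in mature muscle and MBNL3 tied to undifferentiated mouse myoblasts. Mbnl1, read by a single probe, had levels of 1.79, 2.20 and 1.97 in si-lncMGPF and 2.12, 2.18 and 2.19 in si-NC. Replicate 2 was above the control arrays, and replicates 1 and 3 were below them. The change was -0.18 (SE 0.12, 95% interval -0.47 to 0.11, limma adjusted p = 0.481), with -0.38 on slide 1 and -0.08 on slide 2.

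Mbnl2 had the largest positive change among the members, and its 3 probes had the same sign. Probe 1 had levels of 1.07, 0.77 and 1.07 in si-lncMGPF, against 0.89, 0.59 and 0.73 in si-NC, a change of 0.23 (SE 0.13, 95% interval -0.07 to 0.54, adjusted p = 0.407). On slide 1 it was 0.33 and on slide 2 0.18. Replicates 1 and 3 were above the control arrays, and replicate 2 was among them. At probe 2 the change was 0.14 (SE 0.09, adjusted p = 0.45), with the groups apart by less than the rounding to 2 decimals, and at probe 3 it was 0.14 (SE 0.14, adjusted p = 0.637), with overlap. None of the 3 passed, and all were positive on slide 1 and on slide 2.

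Mbnl3 at probe 1 had levels of 0.24, 1.13 and 0.86 in si-lncMGPF and 0.65, 0.78 and 0.64 in si-NC. The si-lncMGPF arrays were spread around the control arrays (SD 0.46 in si-lncMGPF, 0.08 in si-NC), and the change was 0.06 (SE 0.22, 95% interval -0.47 to 0.58, adjusted p = 0.913). It was -0.45 on slide 1 and 0.31 on slide 2, the largest gap between slides of any brightest probe. Probe 2 was near background, above it on 5 of 6 arrays, and had a change of -0.13 (SE 0.11, adjusted p = 0.582).

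CELF1 and CELF2, known also as CUGBP1 and ETR-3, favour fetal splice forms in heart and muscle, and CELF1 also promotes decay of mRNAs with GU-rich elements. Celf1 at probe 1 had levels of 2.08, 2.42 and 2.32 in si-lncMGPF and 2.24, 2.42 and 2.31 in si-NC. The groups overlapped, and the change was -0.05 (SE 0.12, 95% interval -0.33 to 0.23, adjusted p = 0.851). Probes 2 and 3 had 0.12 (SE 0.13) and 0.11 (SE 0.11), with adjusted p of 0.669 and 0.646.

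Celf2 at probe 1 had levels of 3.08, 3.35 and 3.31 in si-lncMGPF, against 3.26, 3.45 and 3.33 in si-NC, a change of -0.10 (SE 0.11, 95% interval -0.36 to 0.16, adjusted p = 0.666). Replicate 1 was below the control arrays and the other two were among them. Probe 2, annotated to the same transcript, had -0.12 (SE 0.09, limma adjusted p = 0.527). Probe 3, annotated to another transcript of Celf2, had 0.09 (SE 0.16, adjusted p = 0.798). On slide 1 the sign differed between these probes, with -0.26 at probe 1 and 0.35 at probe 3. Celf1 probes 1 and 2, annotated to the same transcript as each other, also differed in sign on slide 1 (-0.24 and 0.35).

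Ptbp1 encodes the polypyrimidine tract binding protein, which represses exons of differentiated muscle and neurons. At probe 1 its levels were 1.32, 1.70 and 1.69 in si-lncMGPF, against 1.39, 1.42 and 1.44 in si-NC. Replicate 1 was below the tightly grouped control arrays and replicates 2 and 3 were above them. The change was 0.15 (SE 0.12, 95% interval -0.14 to 0.45, adjusted p = 0.555), with -0.10 on slide 1 and 0.28 on slide 2. Without si-lncMGPF replicate 1, where group and slide coincide and 16.6% of all tested probes were called, it became a call (0.28, limma adjusted p = 0.0398). It was also a call with array weights (0.24, limma adjusted p = 0.00701), where 54.3% of all tested probes were called. Those weights were largest in their groups for si-lncMGPF replicate 3 (slide 2) and si-NC replicate 3 (slide 1), so group and slide nearly coincide there too. Probe 2 had 0.04 (SE 0.08, adjusted p = 0.833).

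Set side by side, the changes on the 2 slides often had opposite signs against the si-NC mean. On slide 1 the change was negative for 16 of 22 probes (median -0.17), and on slide 2 it was positive for 14 of 22 (median 0.06). The sign differed between slides for 12 probes (54.5%), beside 45.8% of all tested probes. Some of these changes were very small, such as -0.01 for Rbfox2 probe 2 on slide 1 and -0.002 for Ptbp1 probe 2 on slide 2. A change by signal strength ran through the arrays as a whole: in the brightest of 5 equal classes of tested probes the median change was -0.11 on slide 1 and 0.13 on slide 2, and in the next class -0.11 and 0.06. Of the 22 member probes 16 lay in these 2 classes. Since slide 2 holds no si-NC array, an effect of that slide cannot be told apart from one of the knockdown. The SD over the si-lncMGPF arrays was larger than over the si-NC arrays for 18 of 22 probes, with medians of 0.17 and 0.08. The same held for 83.9% of all tested probes.

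**Figure D3:**
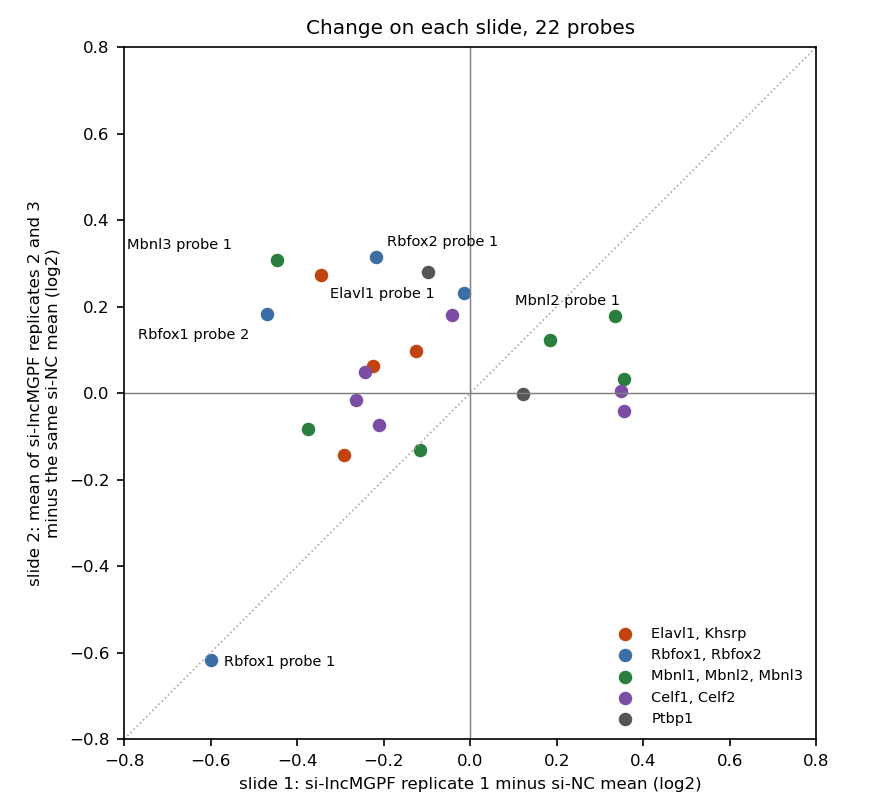
Change of each of the 22 probes on slide 2 (vertical axis, mean of si-lncMGPF replicates 2 and 3) against the change on slide 1 (horizontal axis, si-lncMGPF replicate 1), both minus the mean of the same 3 si-NC arrays, in log2 units; colours mark gene families and the dotted line equal change. Rbfox1 probe 1 lies close to the line at -0.60 and -0.62, while Elavl1 probe 1 and Mbnl3 probe 1 lie in the upper left, with opposite signs.

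Among the genes with levels most like Elavl1 probe 1 over the 6 arrays were Hp1bp3, a heterochromatin protein gene (r = 0.999), and Morc4 (r = 0.998). They were taken from the highest among 12885 genes, and the shared pattern is the one described above, low on si-lncMGPF replicate 1 and high on replicates 2 and 3. Their changes were 0.05 and 0.03, with limma adjusted p of 0.883 and 0.907.

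Whether probes of 1 gene changed unequally was tested on their differences within each array, in which the scaling of the array cancels. Over all named genes with at least 2 tested probes there were 4263 such pairs, each setting a further probe against the brightest, and 0 passed an adjusted p of 0.05 (limma, a background of 0%; 11.9% were below an unadjusted p of 0.05). Among the 12 pairs of member probes 0 passed, and 0 were below an unadjusted p of 0.05. The widest gap was between the Rbfox1 probes: probe 2 minus probe 1 was -0.58, -0.20 and 0.38 in si-lncMGPF, against -0.46, -0.86 and -0.81 in si-NC. The difference in change was 0.58 (SE 0.26, 95% interval -0.04 to 1.20, adjusted p = 0.449). It was 0.13 on slide 1 and 0.80 on slide 2, so the 2 probes moved alike on slide 1 and parted on slide 2. For Elavl1 the difference in change was -0.04 (SE 0.15, adjusted p = 0.92). All probes had the same sign of change in 6 of the 9 genes with more than 1 probe, and signs were mixed in Celf1, Celf2 and Mbnl3.

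Paralogs and antagonists were then compared as the log2 ratio of 2 genes on the same array, each by its brightest probe, for 8 pairs. With 3 arrays against 3 an exact permutation test cannot go below p = 0.1, so no pair could pass, and the values are given for their size. The ratio of Elavl1 to Khsrp, a mostly stabilising over a destabilising factor, differed by 0.10 (SE 0.15, exact two-sided p = 0.7, adjusted p = 0.8), with -0.12 on slide 1 and 0.21 on slide 2. Rbfox1 over Rbfox2 had the largest difference, -0.75 (SE 0.19, exact p = 0.1, adjusted p = 0.4), without overlap of the groups. It was -0.38 on slide 1 and -0.93 on slide 2. That rank depends on the setting: after normexp with an offset of 50 the ratio differed by -0.37, less than Mbnl1 over Mbnl2 at -0.41, and on slide 1 it was smaller than Mbnl1 over Mbnl2 (-0.71) and Mbnl3 over Mbnl2 (-0.78).

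Mbnl1 over Mbnl2 differed by -0.41 (SE 0.24, exact p = 0.2, adjusted p = 0.4), with -0.71 on slide 1 and -0.26 on slide 2, and the groups overlapped. Mbnl1 over Celf1, the pair of antagonists of myotonic dystrophy, differed by -0.13 on either slide (SE 0.05, exact p = 0.2, adjusted p = 0.4), and the groups overlapped by a single si-lncMGPF array. The log2 ratio of Celf2 to Celf1 had the narrowest spread of the 8, with a mean of 0.97 (SD 0.04, n = 3) in si-lncMGPF and 1.02 (SD 0.01, n = 3) in si-NC. The difference was -0.05 (SE 0.03, exact p = 0.1, adjusted p = 0.4), and the groups did not overlap. Ptbp1 over its neuronal paralog Ptbp2 differed by 0.29 (SE 0.19, exact p = 0.3, adjusted p = 0.4). The ratios of Mbnl3 to Mbnl1 and to Mbnl2 differed by 0.24 (exact p = 0.3, adjusted p = 0.4) and -0.17 (exact p = 0.8, adjusted p = 0.8).

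**Figure D4:**
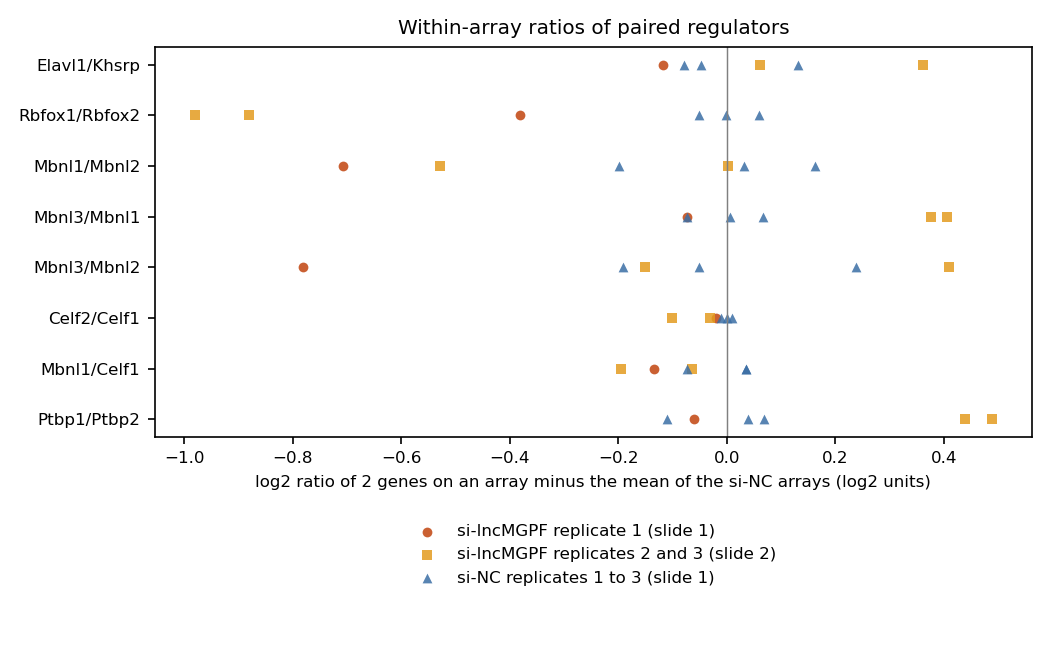
Log2 ratio of 2 genes on each array, drawn as the difference from the mean of the 3 si-NC arrays: circles, si-lncMGPF replicate 1; squares, si-lncMGPF replicates 2 and 3; triangles, si-NC. The Rbfox1/Rbfox2 ratio lies below the control arrays on all 3 si-lncMGPF arrays, and Celf2/Celf1 has the narrowest spread.

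The mRNAs that HuR is described to bind in muscle cells were read next, with the brightest probe of each gene. Of 6 such genes 0 passed (limma) and 0 were below an unadjusted p of 0.05 by that probe. Over all 14265 named genes tested by their brightest probe, 0.147% passed, 14.2% were below an unadjusted p of 0.05 and 54% were positive. The median change of the 6 genes was 0.10, beside 0.02 over all named genes tested, and 5 were positive. On slide 1 their median was -0.03, with 3 of 6 negative, and on slide 2 it was 0.18, with 6 of 6 positive. The sign differed between slides for 3 of them, Myod1, Hmgb1 and Stat3. Myod1, a master regulator of the myogenic lineage, had a change of 0.06 (95% interval -0.20 to 0.31). For Myog, the myogenin gene, it was 0.09 (95% interval -0.14 to 0.32), and both intervals lay within 1.5-fold. Cdkn1a, the inhibitor that takes myoblasts out of the cell cycle, had 0.20 (SE 0.09, adjusted p = 0.329), with all si-lncMGPF arrays above all si-NC arrays and 0.12 on slide 1 and 0.25 on slide 2. Its probe 2 had 0.08 (SE 0.13, adjusted p = 0.765), with opposite signs on slide 1 (0.28) and slide 2 (-0.01). Npm1, which encodes nucleophosmin, had 0.18 (SE 0.11, adjusted p = 0.446), Hmgb1, a chromatin protein gene, 0.11 (SE 0.13, adjusted p = 0.696), and Stat3 -0.03 (SE 0.12, adjusted p = 0.91). The other probes of Hmgb1 ran between -0.50 and 0.30 and those of Npm1 between -0.20 and 0.29, none past the threshold, though 3 of Hmgb1 (2 positive, 1 negative) and 2 of Npm1 (both positive) were below an unadjusted p of 0.05. Both genes have near-identical copies in the genome, so their signals are uncertain.

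The proteins that act beside HuR on AU-rich elements, 11 genes, had a median change of 0.05; 0 passed and 2 of 11 were below an unadjusted p of 0.05, near the 14.2% of all named genes. Zfp36, which encodes the decay factor tristetraprolin, had levels of -2.77, -3.55 and -3.83 in si-lncMGPF, against -2.48, -2.59 and -2.64 in si-NC. The change was -0.82 (SE 0.26, adjusted p = 0.246), and it was mostly seen on slide 2 (-1.12, against -0.20 on slide 1). Pcbp2, a poly(C)-binding protein gene, had 0.25 (SE 0.10, adjusted p = 0.284). Of the 3 other ELAV genes, Elavl4 was above the filter (-0.10, adjusted p = 0.664), while Elavl2 and Elavl3 were not. Exosome and deadenylation factors, 16 genes, had a median of -0.02 with 0 passing and 0 below an unadjusted p of 0.05. Nearest were Exosc4 (0.24, adjusted p = 0.324), an exosome subunit gene, and Cnot1 (-0.20, adjusted p = 0.401), the scaffold of a deadenylase complex.

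Genes of SR and hnRNP proteins, the general splicing factors, were positive in 21 of 22 cases beside 54% of all named genes, with a median of 0.16. None passed (limma, 0 of 22), and 3 were below an unadjusted p of 0.05, a share near the 14.2% of all named genes. On slide 1 their median was -0.01, with 12 of 22 negative, and on slide 2 it was 0.18, with 20 of 22 positive. In the brightest of the 5 classes of all tested probes the medians were -0.11 and 0.13. The part of signal strength in the values of the SR and hnRNP genes was not tested. The smallest p were those of Srsf9 (0.45, SE 0.11, adjusted p = 0.213) and Srsf3 (0.36, SE 0.10, adjusted p = 0.217), both SR proteins, with 0.29 and 0.35 on slide 1 and 0.53 and 0.37 on slide 2. The other was Srsf2 (0.34, adjusted p = 0.254). Among 11 other splicing regulators, not all of them known from muscle, the median was -0.11. Of these 0 passed (limma) and 3 of 11 were below an unadjusted p of 0.05, beside 14.2% of all named genes. Srpk3, a muscle kinase of SR proteins, had -0.44 (SE 0.12, adjusted p = 0.223), with levels of -1.46, -1.86 and -1.63 in si-lncMGPF below -1.16, -1.26 and -1.23 in si-NC. Nova2, a splicing factor gene known from neurons, had -0.38 (SE 0.12, adjusted p = 0.238), and Esrp1, an epithelial splicing factor gene, had 0.70 (SE 0.24, adjusted p = 0.264). The paralogs of the members, 6 genes above the filter, had a median of -0.06; 0 passed and 0 were below an unadjusted p of 0.05. The smallest p were those of Fubp1, a paralog of Khsrp (0.29, SE 0.18, adjusted p = 0.444), and Ptbp2 (-0.13, SE 0.09, adjusted p = 0.49). Rbfox3 and Celf3 were not above the filter.

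Transcripts whose splicing RBFOX, MBNL, CELF or PTB proteins are known to set in muscle had a median change of -0.06 over 21 genes; 0 passed and 3 of 21 were below an unadjusted p of 0.05, near the 14.2% of all named genes. Cacna1s, a calcium channel gene of muscle, had -0.46 (SE 0.11, adjusted p = 0.208), with -0.55 on slide 1 and -0.41 on slide 2. Mef2c, a partner of myogenic factors, had 0.78 (SE 0.21, adjusted p = 0.223), with 1.03 on slide 2 and 0.27 on slide 1, but its probe was dim (levels of -4.91, -4.06 and -4.25 in si-lncMGPF, against -5.21, -5.16 and -5.18 in si-NC), so its size depends on the background subtraction. Pkm, the pyruvate kinase gene, had 0.44 (adjusted p = 0.236). These are changes of transcript amount and say nothing of which exons were used. Markers of neurons, where Rbfox1 and Celf2 are also known to be expressed, were above the filter for 5 of 6 genes, with a summed level of 30.8 to 41 times the 75th percentile in si-lncMGPF and 36.7 to 37.5 times in si-NC. Most of that sum came from the bright probes of Tubb3 (mean level 4.35 in si-lncMGPF, 4.53 in si-NC) and Nefl (3.78 and 3.47). Such a sum weighs each probe by its brightness. Within that list Snap25 had -1.03 (adjusted p = 0.191) and Syt1, by a probe as dim as that of Mef2c, 0.48 (adjusted p = 0.426), and Rbfox3 was not above the filter. Their part in the Rbfox1 result was not tested.

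**Figure D5:**
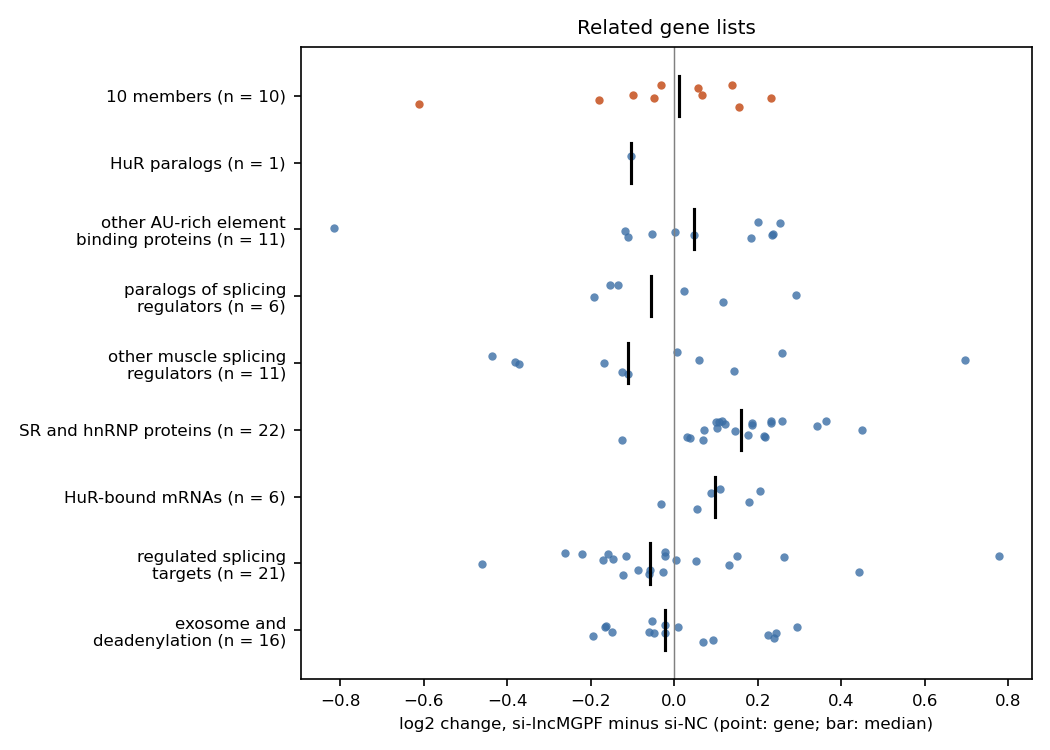
Log2 change (si-lncMGPF minus si-NC) of each tested gene by its brightest probe, for the 10 members (top row) and the related lists; black bars are list medians. The list medians lie between -0.11 and 0.16, that of SR and hnRNP genes is the highest, and no point passed an adjusted p of 0.05.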

How the data were processed

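Each of the 3 si-lncMGPF and 3 si-NC samples has 1 Agilent array with a single dye, Cy3. The intensity in the deposited files is the processed signal of Feature Extraction 11.0.1.1, per the file headers, which list background-subtraction and spatial-detrending statistics. The series table the authors deposited holds the same intensity at 44397 of 44397 spots on each array, so it is not scaled between arrays. No other step is described in the labels.

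Outlier spots (117 to 134 per array) were left out, no spot was saturated, and the processed signal was put on a log2 scale, each array was centred on its 75th percentile, and spots of a probe were averaged. This was computed here from the deposited intensity, and it hides a shift of most transcripts in 1 direction. A probe was tested if above background on every array of a group (24661 of 39429). Accessions, versions removed, were matched to a RefSeq table of another build, for names only, which named 27234 probes. No coordinates, probe sequences or promoters are given.

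The comparison used lmFit and eBayes of limma 3.58.1 (R 4.3.3) without covariates and Benjamini-Hochberg adjustment over all tested probes. Probe differences were fitted likewise over 4263 pairs, and 8 ratios by exact permutation. On simulated data without a slide effect, 24617 probes per run, recovery was 22% at a 1.5-fold change, 61.1% at 2-fold and 89.7% at 4-fold, and 4% of calls were false.

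The members and lists were chosen with earlier results of these data known. All member probes are named, and of each list members past the threshold or else the 2 with the smallest p (all 6 for HuR-bound mRNAs). For Elavl1 and Rbfox1 the genes most alike over the arrays are named, of which 1 is not reported here. Srsf2, Esrp1, Pkm, Snap25, Syt1 and genes below the filter are named outside this rule, after their values were seen. Alternatives were median centring, quantile normalization, normexp on median spot signals (mean spot signals were not used here), other filters, an intensity trend, array weights, slide and replicate blocks, slide 1 alone, the series table and leaving out each array. Normexp with an offset of 10 was chosen after seeing the data. Figures were drawn with matplotlib 3.10.9.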

Additional observations from a re-analysis of the deposited data

How the results depend on the processing

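No member probe passed under 17 of the 19 alternatives; the exceptions were array weights and leaving out si-lncMGPF replicate 1. Against 26 calls over all tested probes in the reported setting, there were 5 with quantile normalization, 0 without a filter on dim probes (limma, 5277 below an unadjusted p of 0.05), 10 with slide as a fixed block, 1 on slide 1 alone and 13394 with array weights. Leaving out 1 array gave 0 to 4105 calls over all probes and 0 to 2 among the 22 member probes. The highest were without si-lncMGPF replicate 1, where group and slide coincide and 16.6% of all tested probes were called. Array weights ran between 0.109 and 9.98. They were largest in their groups for si-lncMGPF replicate 3 (2.94, slide 2) and si-NC replicate 3 (9.98, slide 1), so group and slide nearly coincide there. This setting called 9 of 22 member probes, beside 54.3% of all tested probes. The 7 higher were Elavl1 probe 2, both probes of Rbfox2, Mbnl2 probes 1 and 2, Ptbp1 probe 1 and Rbfox1 probe 2. The 2 lower were Rbfox1 probe 1 and Mbnl1. The cause was not tested. Correlations of same-numbered deviations between the groups were 0.18, 0.32 and -0.06, and those of differing numbers ran from -0.29 to 0.06. These values do not settle whether replicate numbers pair the samples. With the replicate block 0 probes were called over all (limma, 4430 below an unadjusted p of 0.05) and 0 among members. The median change of the members, 0.05, was 0.14 with array weights, -0.17 with slide as a fixed block or on slide 1 alone, -0.12 with slide as a random block, and -0.0051 to 0.056 when 1 array was left out. Signs turned as follows. With normexp, Elavl1 probe 1 was -0.023 at either offset, Khsrp probe 1 0.019 at either, Rbfox1 probe 2 0.025 at offset 50 and 0.031 at offset 10, and the Elavl1/Khsrp ratio -0.042 at offset 50 and -0.043 at offset 10. With array weights, Khsrp probe 1 was 0.046, Rbfox1 probe 2 0.54 and Celf1 probe 1 0.0028. With slide as a fixed block or on slide 1 alone, which hold the same contrast, Elavl1 probes 1 and 2 were -0.34 and -0.12, Rbfox2 probes 1 and 2 -0.22 and -0.013, Mbnl3 probe 1 -0.45, Celf1 probe 3 -0.043 and Ptbp1 probe 1 -0.10. On slide 1 alone the ratios Elavl1/Khsrp, Mbnl3/Mbnl1 and Ptbp1/Ptbp2 were -0.12, -0.072 and -0.064. With slide as a random block, Elavl1 probes 1 and 2 were -0.22 and -0.081, Rbfox2 probe 1 -0.11, Mbnl3 probe 1 -0.30 and Ptbp1 probe 1 -0.023. Leaving out 1 array gave -0.063 to 0.27 for Elavl1 probe 1, -0.026 to 0.098 for Elavl1 probe 2, -0.15 to 0.063 for Khsrp probe 1, -0.33 to 0.18 for Rbfox1 probe 2, -0.12 to 0.048 for Celf1 probe 1, -0.042 to 0.26 for Celf2 probe 3, -0.14 to 0.31 for Mbnl3 probe 1, -0.0021 to 0.064 for Ptbp1 probe 2, -0.031 to 0.21 for Elavl1/Khsrp and -0.47 to 0.13 for Mbnl3/Mbnl2. Rbfox1 probe 1 was negative in every setting, -0.66 to -0.27. Both Rbfox1 probes and Mbnl3 probe 2 lay near background, which limits their precision.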
